A study of Bos taurus with 3 samples.

Results

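Genes that mark macrophages were followed through the onset of lactation in the bovine mammary gland. They are CD163, MSR1, CSF1R, VSIG4, C1QA, C1QB, CD14, CD68 and CTSS. Members were found by symbol in the gene descriptions, with every accession of a symbol kept. All 9 symbols were present, as 10 accessions of 9154 genes in all, because MSR1 had 2 transcript variants. The tissue came from Holstein cows in their second parity, by needle biopsy at about day 35 before parturition (−35 d, the dry gland), about day 7 before parturition (−7 d, with pre-colostrum secretion) and day 3 after parturition (+3 d, with colostrum production). Tissue of 6 cows per time point was pooled before RNA was isolated, and that RNA was made into 1 digital gene expression library. So 3 libraries stand for 18 cows and no spread between cows can be estimated. The comparison of −7 d with −35 d is called stage I and that of +3 d with −7 d stage II.

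Macrophages are phagocytes that live in the stroma and around the ducts and alveoli of the mammary gland, where they clear dying cells and debris and take part in defence and in remodelling of the tissue. Tissue macrophages depend on signalling through the receptor CSF1R and carry scavenger receptors and complement receptors at the surface. They are a main source of C1q, which starts the classical complement pathway, and they break down what they take up in lysosomes. None of the genes is used by macrophages alone, and CTSS, C1q and CD14 are also made by other cells.

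In this assay each transcript is represented by 21-base tags next to NlaIII sites (CATG), and a level is given in TPM, the tags of the gene scaled to the clean tags of the library. The libraries held 5914422, 5593237 and 5845821 clean tags at −35 d, −7 d and +3 d. Tags on listed genes made up 40.5%, 41.4% and 53.0% of them. A gene with no listed tag is not shown to be absent, since single-copy tags were removed. A floor of 3 tags was set, which is 0.507, 0.536 and 0.513 TPM, and no fold is given where a library had 3 tags or fewer. How many tags a gene yields depends on its CATG sites, so levels are compared between libraries and not between genes. A gene was called when the Audic-Claverie test, an exact test on the tag counts of a pair of libraries, gave a false discovery rate (FDR) of at most 0.001 and the difference was at least 2-fold. That test compares libraries, not conditions, and it knows counting error only, as do all 95% intervals below. TMM scaling, which sets the bulk of genes level between libraries, would add 0.19 in stage I, 0.31 in stage II and 0.50 at +3 d against −35 d to every log2 ratio.

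The macrophage genes were mostly lowest at −7 d. Of the 9 accessions that averaged 1 TPM or more (MSR1 variant 1 did not), 7 had their lowest TPM at −7 d, against 26.1% of the 7570 genes above the same floor. C1QA and C1QB are among the 7 although they differed from −35 d within counting error, and with TMM scaling the count was 6, without C1QA and C1QB and with CTSS, against 32.0% of genes. In stage I, CD163, CSF1R, VSIG4, CD68 and CTSS were downregulated and none was upregulated, which is 5 of 10 accessions lower where 6.45% of all tested genes were called lower and 2.62% higher. In stage II, CD163, CSF1R, VSIG4 and CD14 were upregulated and none was downregulated, which is 4 of 10 accessions higher where 3.12% of all tested genes were called higher and 10.4% lower. Both stages use the same −7 d library, so a deviation of that library alone would enter the values of both. In the comparison of +3 d with −35 d, CD163 and CD14 were higher (2.33% of all genes were called higher) and CTSS was lower (16.3% were called lower). These calls depend on counting error being the only error. With a coefficient of variation of 0.2 assumed between pools in edgeR's exact test, no member was called in stage I, 1 in stage II (CD163) and 1 at +3 d against −35 d (CD14). In pooled tissue, fewer macrophages and less RNA of these genes per macrophage cannot be told apart. A TPM is a share of all clean tags, so it is also lower where other genes give more tags.

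**Figure D1:**
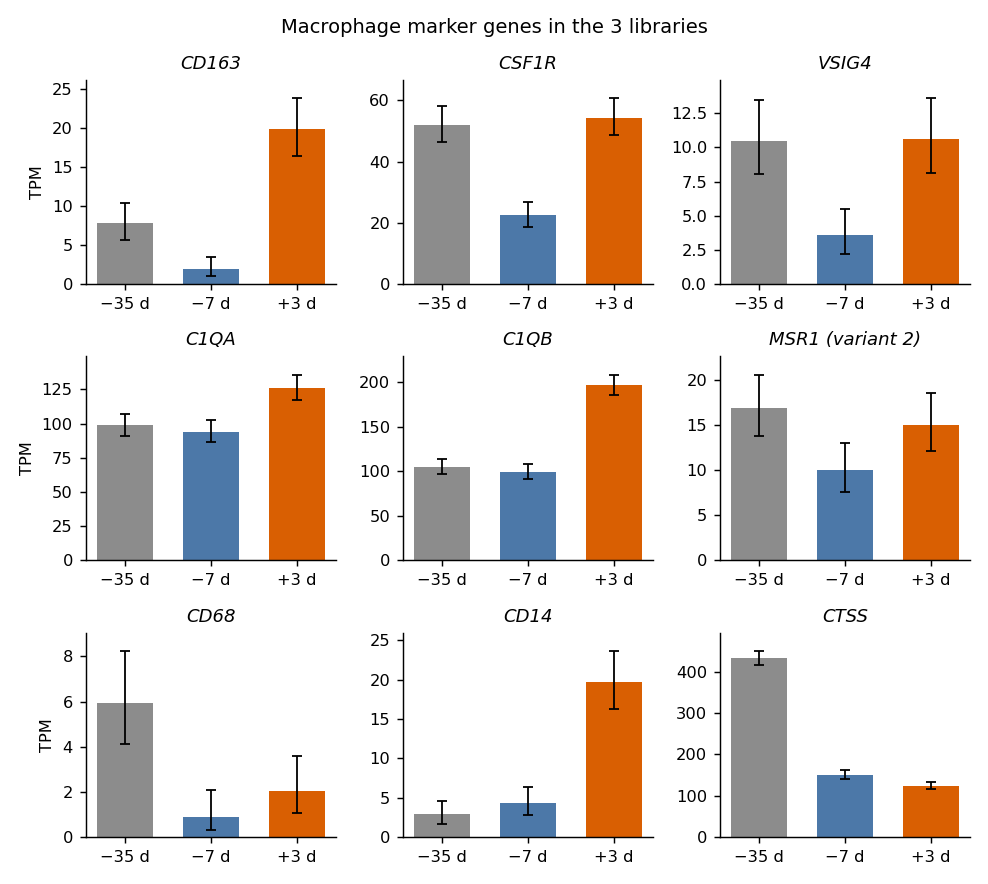
Level of each macrophage gene (y axis, TPM, each panel with its own scale from 0) in the −35 d, −7 d and +3 d libraries, with exact Poisson 95% intervals as error bars and variant 2 shown for MSR1. CD163, CSF1R and VSIG4 dipped at −7 d, CD14 was highest at +3 d (19.7 TPM) and CTSS was highest at −35 d (432 TPM).

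The scavenger receptor CD163 takes up haptoglobin-haemoglobin complexes and is held as a mark of resident, tissue-repair macrophages. It had 46, 11 and 116 tags at −35 d, −7 d and +3 d, or 7.78, 1.97 and 19.8 TPM. The 3 intervals of the level did not overlap, and the order was +3 d over −35 d over −7 d. The level was 3.95-fold lower at −7 d than at −35 d (2.02 to 8.47) and 10.1-fold higher at +3 d than at −7 d (5.43 to 20.8). It ended 2.55-fold above the dry gland (1.80 to 3.67).

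MSR1, the class A scavenger receptor that binds modified lipoproteins and bacterial surfaces, was listed as 2 variants. Variant 2 had 100, 56 and 88 tags at −35 d, −7 d and +3 d, or 16.9, 10.01 and 15.1 TPM. The −7 d level was 1.69-fold lower than that at −35 d (1.21 to 2.39) and the +3 d level 1.50-fold higher than that at −7 d (1.06 to 2.14), neither of which passed the test. Variant 1 had 2, 0 and 6 tags, too few for a fold.

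CSF1R, the receptor for CSF1 and IL34 on which macrophage survival depends, had 308, 126 and 318 tags in the order of time, or 52.1, 22.5 and 54.4 TPM. It was 2.31-fold lower at −7 d than at −35 d (1.87 to 2.87) and 2.41-fold higher at +3 d than at −7 d (1.96 to 2.99). The levels at −35 d and +3 d differed by 1.04-fold, with an interval from 0.890 to 1.23, so these neighbours in the order were not separated.

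VSIG4 encodes a complement receptor of resident macrophages that binds C3b and iC3b. It had 62, 20 and 62 tags, or 10.5, 3.58 and 10.6 TPM. The level was 2.93-fold lower at −7 d than at −35 d (1.75 to 5.12) and 2.97-fold higher at +3 d than at −7 d (1.77 to 5.18). As with CSF1R, the −35 d and +3 d levels were not separated, at 1.01-fold (0.700 to 1.46). VSIG4 tags per CSF1R tag were 0.201, 0.159 and 0.195 in the 3 libraries, and their intervals overlapped.

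C1QA and C1QB encode chains of C1q, the recognition part of the first complement component. In the annotation ARS-UCD2.0, C1QC lies beside C1QA, and 1 gene, LOC112443416, stands between C1QC and C1QB. C1QC itself was not analysed here. C1QA had 585, 527 and 738 tags at −35 d, −7 d and +3 d, or 98.9, 94.2 and 126 TPM. C1QB had 620, 555 and 1148 tags, or 105, 99.2 and 196 TPM. Unlike CSF1R and VSIG4, both were within counting error between −35 d and −7 d, at 1.05-fold lower for C1QA (0.932 to 1.18) and 1.06-fold lower for C1QB (0.941 to 1.19), and their sign turned with TMM scaling.

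After parturition both C1q levels were above the other libraries, C1QB by more than C1QA. In stage II, C1QA was 1.34-fold higher (1.20 to 1.50) and C1QB 1.98-fold higher (1.79 to 2.19). C1QB had an FDR of 1.09e-40 by the Audic-Claverie exact test but stood just below the 2-fold threshold, and with TMM scaling it passed. C1QA tags per C1QB tag were 0.944 at −35 d (0.841 to 1.06), 0.9496 at −7 d (0.841 to 1.07) and 0.643 at +3 d (0.585 to 0.706). This ratio does not depend on library scaling, and its interval at +3 d lay below those of the other libraries.

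CD14, the co-receptor that hands lipopolysaccharide to TLR4, was highest after parturition. It had 17, 24 and 115 tags in the order of time, or 2.87, 4.29 and 19.7 TPM. It was the 1 member with a higher value at −7 d than at −35 d, by 1.49-fold, with an interval from 0.769 to 2.96 that includes no difference. It was upregulated 4.58-fold in stage II (2.93 to 7.45) and was 6.84-fold above the dry gland at +3 d (4.09 to 12.2).

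CD68, a glycoprotein of the lysosomal membrane in phagocytes, gave few tags, with 35, 5 and 12 in the order of time, or 5.92, 0.894 and 2.05 TPM. It was downregulated 6.62-fold in stage I (2.58 to 21.6). At +3 d it was 2.30-fold above −7 d, with an interval from 0.753 to 8.32, and 2.88-fold below −35 d (1.46 to 6.10), and neither passed the test.

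CTSS, a lysosomal cysteine protease that trims the invariant chain in antigen-presenting cells, gave more tags than any other member at −35 d and −7 d. It had 2557, 842 and 727 tags, or 432, 151 and 124 TPM. It was downregulated 2.87-fold in stage I (2.66 to 3.11) and stayed 3.48-fold below the dry gland at +3 d (3.20 to 3.78). The stage II difference was 1.21-fold lower (1.09 to 1.34), which was not called and turned to a log2 ratio of 0.03 with TMM scaling. CTSS thus did not share the higher level of CD163, CSF1R, VSIG4 and CD14 in stage II.

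**Figure D2:**
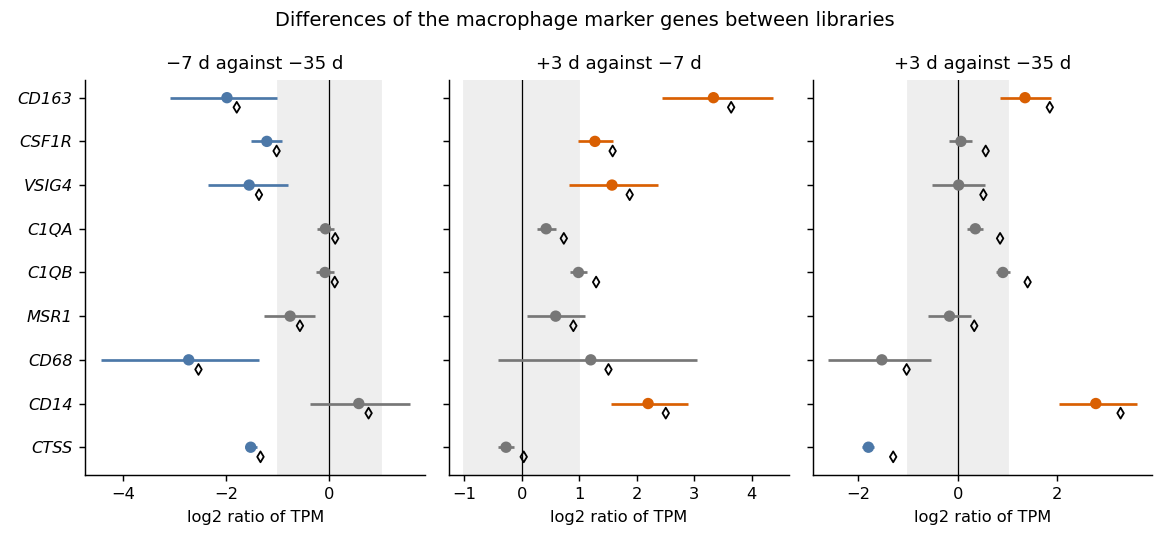
Log2 ratio (x axis) of each macrophage gene in stage I, in stage II and at +3 d against −35 d, with 95% intervals from the exact binomial interval as bars. Blue points were called lower, orange points called higher and grey points not called, the grey band marks differences under 2-fold, and open diamonds give the ratio after TMM scaling. CD163 had the largest stage II ratio among the genes plotted, at a log2 ratio of 3.33.

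The summed level of the members was taken as a rough stand-in for the macrophage share of the gland, a link that was not tested. It depended on which genes were summed, and genes that yield many tags weigh most in it. Over all 9 genes the sum was 732 TPM at −35 d, 387 at −7 d and 570 at +3 d. It was 1.89-fold lower in stage I (1.80 to 1.99) and 1.47-fold higher in stage II (1.39 to 1.55). CTSS made up 59.0%, 38.9% and 21.8% of these tags, more than any other member at −35 d and −7 d. Without CTSS the sum was 300.1, 237 and 445 TPM, 1.27-fold lower in stage I (1.18 to 1.36) and 1.88-fold higher in stage II (1.76 to 2.01).

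Between the dry gland and +3 d the sum over 9 genes was 1.29-fold lower (1.23 to 1.35), but without CTSS it was 1.48-fold higher (1.40 to 1.58), and with TMM scaling the sum over 9 genes was also above −35 d, at a log2 ratio of 0.14. CTSS, C1QA and C1QB together held most of the tags. Without them the sum was 96.4, 43.3 and 123 TPM, 2.23-fold lower in stage I (1.91 to 2.60) and 2.83-fold higher in stage II (2.45 to 3.29). Set against the tags of 12 genes of leukocytes in general rather than all clean tags, the log2 ratio of the 9-gene sum was −0.48 in stage I and 0.26 in stage II, and the sum without CTSS had 0.09 in stage I. LAPTM5 alone gave 1134, 771 and 1380 of the 3376, 2361 and 3027 tags of those 12 genes. Leukocytes in general include macrophages, so this is not a ratio of macrophages to other leukocytes.

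**Figure D3:**
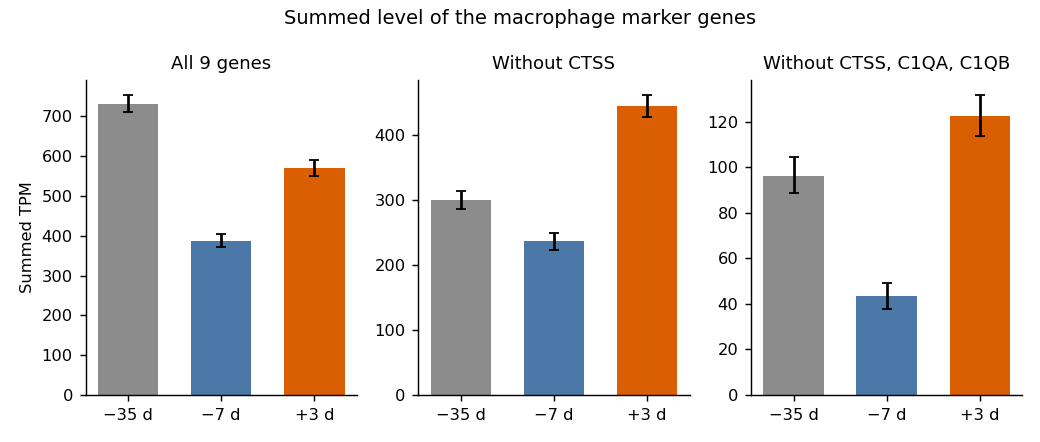
Summed level of the macrophage genes (y axis, TPM) in each library for all 9 genes, without CTSS, and without CTSS, C1QA and C1QB, with exact Poisson 95% intervals as error bars. All 3 sums were lowest at −7 d, and +3 d was below −35 d in the sum over 9 genes and above it in the other sums.

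The proportions among the members, which need no library scaling, shifted between libraries. CD14 tags per CSF1R tag were 0.0552, 0.190 and 0.362 at −35 d, −7 d and +3 d. CTSS tags per CSF1R tag were 8.30, 6.68 and 2.29. C1QB tags per CSF1R tag were 2.01, 4.40 and 3.61. So the −7 d and +3 d libraries both had more C1QB and more CD14 tags per CSF1R tag than the dry gland. The +3 d library also had fewer CTSS tags per CSF1R tag. In each of these cases the interval did not overlap that of the dry gland. CD163 tags per CSF1R tag were 0.149, 0.0873 and 0.365, and only the interval at +3 d was apart from the other pair.

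A further list of 28 macrophage markers had 16 listed genes, among them AIF1, FOLR2, LYVE1 and APOE. CX3CR1, the fractalkine receptor of resident macrophages, LGMN, a lysosomal endopeptidase, GPNMB, a glycoprotein of phagocytes, and TREM2, a lipid receptor, were downregulated in stage I, and FCGR2B was upregulated, which is 4 lower and 1 higher. CD5L, HMOX1 and GPNMB were upregulated in stage II and FCGR2B was downregulated, which is 3 higher and 1 lower. The median log2 ratio of the list was −0.86 in stage I and 0.45 in stage II, beside −1.21 and 1.12 for the 9 accessions of members that averaged 1 TPM or more and −0.19 and −0.31 for all genes. At +3 d against −35 d the list median was −0.34, beside 0.06 for the members and −0.53 for all genes. There 3 genes of the list were called lower (CX3CR1, FCGR2B and APOE) and 1 higher (CD5L). With TMM scaling that list median was 0.16, with 2 genes lower and 4 higher.

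CD5L, a protein secreted by tissue macrophages that binds lipids, had 11, 5 and 175 tags and was 33.5-fold higher in stage II (14.1 to 104). GPNMB had 190, 40 and 290 tags, 4.49-fold lower in stage I (3.18 to 6.49) and 6.94-fold higher in stage II (4.97 to 9.91). HMOX1, which breaks down haem, had 376, 254 and 548 tags and was 2.06-fold higher in stage II (1.78 to 2.40). CX3CR1, with 1056, 438 and 308 tags, was downregulated 2.28-fold in stage I (2.04 to 2.55) and had a value 1.49-fold lower again in stage II, which was not called. With TMM scaling CX3CR1 and LGMN were no longer called in stage I, FOLR2 was called higher there, and LYVE1 and LGMN were called higher in stage II.

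FCGR2B, an inhibitory receptor for IgG that is written FCGR2 in the gene tables, went against the members. It had 3015, 15031 and 705 tags, or 509.8, 2687 and 121 TPM. It was upregulated 5.27-fold in stage I (5.07 to 5.48) and downregulated 22.3-fold in stage II (20.7 to 24.1). The other gene of the list with the most tags was APOE, which carries lipids and had 2545, 1308 and 947 tags. It was 1.84-fold lower in stage I (1.72 to 1.97) and was not called in either stage. At +3 d against −35 d it was called lower, at a log2 ratio of −1.41 with 0.5 added tags, a call lost with TMM scaling. Which cells gave these tags was not tested.

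The list of complement genes around C1q, which also held C1QTNF1, a C1q-related gene that is not a complement component, had calls in both stages. Of 13 listed genes, 5 were downregulated in stage I, C2, C3, CFD and CFI among them, and none was upregulated. In stage II 7 were upregulated, among them C1R, C3, CFB, CFD, C3AR1 and C1QTNF1, and none was downregulated, and the medians were −0.94 and 1.17. With TMM scaling CFD was no longer called in stage I and C2 was also called higher in stage II, which made 4 lower and 8 higher. C3, whose cleavage products are ligands of VSIG4, had 1423, 363 and 1346 tags, 3.71-fold lower in stage I (3.30 to 4.17) and 3.55-fold higher in stage II (3.16 to 3.99). C1R, a protease of the first complement component, was 2.24-fold higher in stage II (1.92 to 2.61), whereas its partner C1S was 1.49-fold higher there (1.38 to 1.61) and not called. SERPING1, the inhibitor of C1r and C1s and the gene with the most tags in the list, had 3412, 2339 and 3413 tags and was not called. C3AR1, the receptor for C3a, was 2.29-fold higher in stage II (1.74 to 3.02).

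Of 8 listed genes around CSF1R none was called in stage I, where 6.45% of all tested genes were called lower and 2.62% higher. INPP5D, a phosphatase that dampens signals of immune receptors, was downregulated in stage II by 2.49-fold (1.96 to 3.17). That call was lost with DESeq2's size factors. In stage II 10.4% of all tested genes were called lower and 3.12% higher. With 8 genes, these counts cannot be set apart from the shares over all genes. Of the ligands, IL34 had 509, 408 and 555 tags, 1.18-fold lower and then 1.30-fold higher, neither of them called, and CSF1 had 0, 3 and 3 tags. FCER1G, an adaptor of activating Fc receptors, had 343, 187 and 196 tags and was not called either. The median log2 ratio was −0.41 in stage I and −0.17 in stage II, the latter turning to 0.14 with TMM scaling.

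Among 12 genes of lipopolysaccharide recognition, LBP, the plasma protein that brings lipopolysaccharide to CD14, had 172, 41 and 225 tags. It was downregulated 3.97-fold in stage I (2.81 to 5.72) and upregulated 5.25-fold in stage II (3.75 to 7.52). BPI, a bactericidal protein, had 7, 26 and 3 tags and was called lower in stage II. TLR4, the signalling receptor, had 163, 141 and 93 tags and LY96, its partner, 141, 88 and 133, without a call for either. IRAK4 and MYD88, which relay the signal inside the cell and had the most tags in the list, were not called. The median log2 ratio was −0.31 in stage I and −0.24 in stage II, which turned to 0.07 with TMM scaling. That scaling also called TLR2 and BPI higher in stage I, where no gene of the list was called higher before it.

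Of 13 genes of scavenging and haemoglobin handling, CD36, SCARA5 and HP were downregulated in stage I. In stage II CD36, COLEC12, HP and SLC11A1 were upregulated and BLVRB was downregulated. HP encodes haptoglobin, whose complex with haemoglobin is the ligand of CD163. It had 266, 58 and 132 tags, 4.34-fold lower in stage I (3.25 to 5.87) and 2.18-fold higher in stage II (1.59 to 3.02). CD36, a fatty acid and lipoprotein receptor that secretory epithelium and fat cells also make, had 928, 432 and 1592 tags, and SLC11A1, a metal transporter of phagosomes, had 7, 3 and 26. FTH1, the iron-storing ferritin heavy chain, had the most tags in the list and was not called. With TMM scaling CD36 and SCARA5 in stage I and BLVRB in stage II were no longer called. The medians were −0.74 and 0.10.

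CTSS was not alone among proteases of the lysosome in stage I. Of 18 genes of cathepsins and class II processing, CTSB, CTSC, CTSD, CTSF, CTSK and the cathepsin inhibitor CST6 were downregulated in stage I, 6 genes, and none was upregulated. CTSB had 3974, 1665 and 2687 tags, 2.26-fold lower in stage I (2.13 to 2.39), and was no longer called with TMM scaling. In stage II only CTSF was called in this list, 2.48-fold higher (2.06 to 2.99). With TMM scaling LAPTM5, which is also in this list, was called higher there too. CD74, the invariant chain that CTSS cleaves, had 9581, 5586 and 4406 tags, 1.62-fold lower in stage I (1.57 to 1.68) and 1.33-fold lower in stage II (1.27 to 1.38), and was not called in either. The medians were −0.63 and 0.21.

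**Figure D4:**
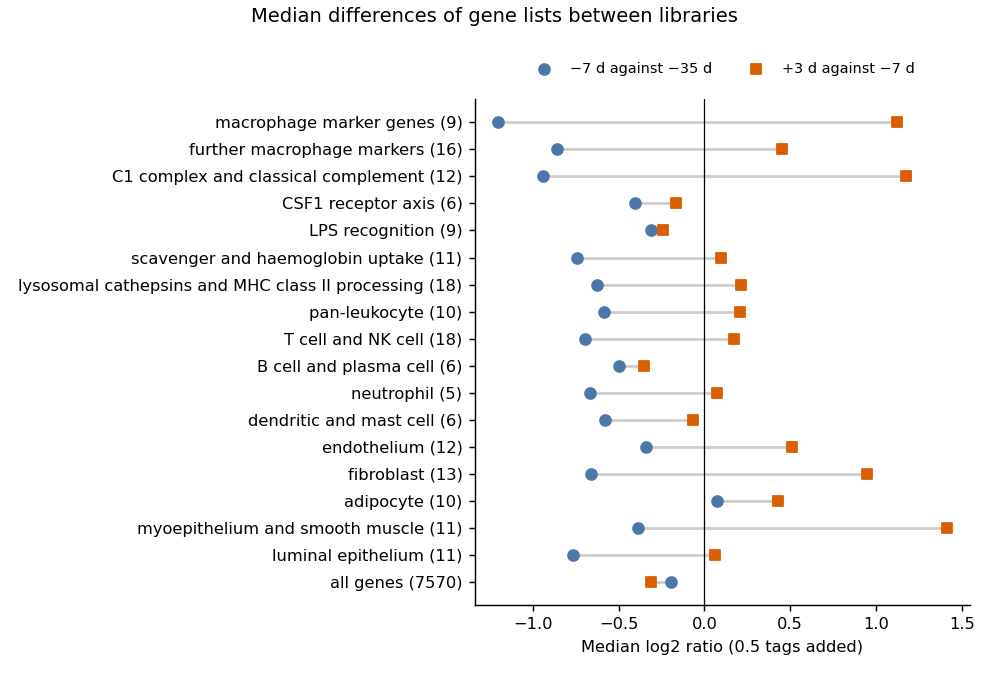
Median log2 ratio (x axis) of each marker list other than the erythrocyte list in stage I (circles) and stage II (squares), over genes averaging 1 TPM or more, whose number is in brackets. The macrophage members were at −1.21 and 1.12, and the myoepithelium list had the highest stage II median (1.41).

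Markers of other cells of the gland moved beside the macrophage genes, and their part in the results above was not tested. Of 12 listed genes of leukocytes in general, ITGB2, the integrin chain of leukocytes, was lower in stage I by 2.71-fold (2.10 to 3.52) and none was called in stage II, where TMM scaling called 2 of them higher (CD37 and LAPTM5). Their sum was 571, 422 and 518 TPM and their medians −0.58 and 0.21. LAPTM5 had 1134, 771 and 1380 tags and LSP1 494, 632 and 502, without a call before that scaling. PTPRC, which marks all leukocytes, was not analysed here. Among 19 T cell and NK cell genes 4 were lower (CD3G, CD8B, LCK and TRAT1) and 1 higher (GNLY) in stage I and 1 was higher in stage II (CD8A), with medians of −0.70 and 0.17. CD3E and NKG7, with the most tags among them, were not called. None of 7 B cell and plasma cell genes was called in stage I or stage II, IGJ and CD79A among them. Neutrophil genes, which can share CD14 with macrophages, had 1 call in each stage of 7 genes, PGLYRP1, higher and then lower, with LTF, which had the most tags among them, not called in either. The dendritic and mast cell genes had 7 listed members with the most tags from FSCN1 and KIT, of which KIT was called higher in stage I and lower in stage II and CD1E lower in stage I.

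Non-immune lists also had higher values in stage II. The fibroblast list, with the most tags from COL1A1 and COL3A1, had medians of −0.66 and 0.95 with 2 of 13 genes lower in stage I (FBLN1 and COL6A2) and 4 higher in stage II (COL1A2, FAP, COL6A1 and COL6A2). With TMM scaling FBLN1 was no longer called in stage I and 9 of the 13 were called higher in stage II. The myoepithelium and smooth muscle list, with the most tags from TAGLN and KRT17, had −0.38 and 1.41, with 3 of 11 lower in stage I (ACTA2, KRT5 and LMOD1) and 6 of 11 higher in stage II. With TMM scaling ACTA2 was no longer called in stage I. Endothelium, with the most tags from ENG and ROBO4, had −0.34 and 0.51, with no call in stage I and 2 of 13 genes higher in stage II (CLDN5 and ERG). The adipocyte list, with the most tags from FABP4 and CFD, had 0.07 and 0.43. Of its 11 genes 1 was higher and 2 lower in stage I, and 3 were higher in stage II. The luminal epithelium list, with the most tags from KRT19 and EPCAM, had −0.76 and 0.06. Of its 11 genes 3 were lower in stage I, and 1 was higher and 1 lower in stage II. With TMM scaling no adipocyte gene and 1 luminal gene were called lower in stage I, and no luminal gene was called lower in stage II. The erythrocyte genes summed to 2.37, 1.79 and 4.11 TPM, with AHSP at 10, 10 and 21 tags and ALAS2 at 0, 0 and 3. A stage I median below 0 with a stage II median above 0 was therefore not particular to macrophage genes.

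Among the 8 genes nearest to the members' median log2 ratios of −1.36 and 1.19, over all 10 accessions and among 4732 genes that averaged 10 TPM or more, were COL6A2, PCOLCE, ANGPTL2, CTSF, TXNIP, DOK1 and JUNB, at distances of 0.0528 to 0.169 on the log2 scale. COL6A2 is a matrix collagen and PCOLCE an enhancer of collagen processing. Likeness rests on 2 ratios from 3 libraries. When the scarce variant 1 of MSR1 was left out of the median, 0 of the 8 genes stayed among the nearest, which then were PRICKLE1, C7, PLXDC2, FABP5, BGN, ITGB5, ADAMTSL4 and PTK2B. CSF1R was the member nearest to the median over all 10 accessions, at 0.174.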

How the data were processed

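Each library was made from RNA of the pooled tissue of 6 cows (NlaIII digestion, 21-base tags, Illumina sequencing). The authors removed adaptor, ambiguous, wrong-length and single-copy tags and matched clean tags to CATG plus 17 bases of bovine transcripts (UMD 3.1) with at most 1 mismatch. Tags of several genes were discarded. Versions of the software for tag filtering and matching are not given in the sources used here. The deposited counts are copies per distinct tag and unambiguous tags per gene, and the deposited TPM is, by the authors, the count of a gene scaled to the clean-tag total of its library. The mapping summary was not used.

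Gene tables were joined by accession, with 0 for an unlisted gene. Clean tags per library (5593237 to 5914422) came from the tag tables. The authors' test, Audic-Claverie, was run on counts of all genes with the Benjamini-Hochberg method, and a call needed an FDR of at most 0.001 and at least 2-fold, with 0 TPM set to 0.01. Intervals (95%) are exact Poisson for levels and exact binomial for ratios and shares. They cover counting error only, since there is 1 pooled library per time point, and PCR copies, which are not independent molecules, can make even that error larger than stated. List medians used 0.5 added tags. Alternatives were TMM (edgeR 4.0.16), DESeq2 1.42.0 size factors, totals without genes over 1% of tags, a 3-fold threshold, a floor of 5 TPM on the mean, 0.5 added tags, Fisher's exact test, and in edgeR an exact test that assumes a coefficient of variation between pools of 0.2 or of 0.4. The test script was tested on simulated data.

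Named genes were the members; in the lists closest to the members every gene called in stage I or stage II and the 2 with the highest mean TPM; in other lists the 2 with the highest mean TPM; and the 8 genes nearest to the members' median. Genes outside this rule (AIF1, FOLR2, LYVE1, CSF1, TLR2, TLR4, LY96 and the called genes of the lists of other cells) were named after their values were seen. Some genes that this rule names are not reported here. Members and lists were chosen with earlier results of these data known. The assembly ARS-UCD2.0 served for names and gene order. Python 3.11.15, scipy 1.17.1 and R 4.3.3 were used.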

Additional observations from a re-analysis of the deposited data

How the results depend on the processing

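Each time point had 1 library, which left no replicate to leave out and no measure of the variance among cows. No paired analysis was possible because each group has 1 library. The alternative with the single most abundant tag of a member was not run, since no transcripts were used here to match tags. Low tag numbers widen the intervals of CD68, CD163, VSIG4 and CD14. Of 246 single values of members, 202 kept direction and side of the threshold, 28 lost and 6 gained a call, and 10 turned. Much of that first count was fixed in advance. Fisher's exact test, the assumed coefficients of variation, the 3-fold threshold and the 5 TPM floor leave each log2 ratio as it was. Direction could therefore not turn there, and all 10 that turned came from other library scalings. C1QB was called higher in stage II and at +3 d against −35 d with TMM, DESeq2's size factors and totals without genes over 1% of tags.

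Calls of members and of all genes in stage I, stage II and +3 d against −35 d were 5, 4 and 3 and 813, 1189 and 1672. With an assumed coefficient of variation of 0.2 they were 0, 1 and 1 (all genes 54, 160 and 156), and with 0.4 they were 0, 0 and 0 (3, 8 and 14). A 3-fold threshold left 2 in stage I and 2 in stage II (317, 440 and 659 of all genes). A mean of at least 5 TPM left 3 members in stage I, because CD163 and CD68 were below it. For all genes at +3 d against −35 d, TMM gave 1004, DESeq2's size factors 992 and totals without genes over 1% gave 1039. The share of all calls that were lower was 71.1%, 77.0% and 87.5%, and with TMM 48.1%, 45.5% and 44.2%.

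The summed log2 ratio was −0.92, 0.56 and −0.36 in stage I, stage II and +3 d against −35 d. It was −0.73, 0.86 and 0.14 with TMM. Totals without genes over 1% gave 0.87 in stage II and 0.0021 at +3 d against −35 d. It was −0.34, 0.91 and 0.57 without CTSS, −0.48, 0.26 and −0.22 per tag of leukocyte genes, and, chosen after seeing the data, −1.16, 1.50 and 0.35 without CTSS, C1QA and C1QB, −0.15, 1.22 and 1.07 without CTSS with TMM, and 0.093, 0.62 and 0.71 without CTSS per tag of leukocyte genes. Single ratios that turned were C1QA in stage I (0.12 with TMM and with DESeq2's size factors), C1QB in stage I (0.11 with both), CTSS in stage II (0.032 with TMM, 0.048 with DESeq2's size factors and 0.033 with totals without genes over 1%) and variant 2 of MSR1 at +3 d against −35 d (0.33, 0.35 and 0.20 in the same order). These shifts follow from the library factor itself, which is the same for every gene. The counts of members lowest at −7 d under other scalings, also chosen after seeing the data, were 6 of 9 with TMM and with DESeq2's size factors and 8 of 9 with totals without genes over 1%. Of the genes nearest to the members, 5 of 8 were shared with a minimum of 30 TPM.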
